A study of Drosophila melanogaster with 36 samples.

Results

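The merged loci are the regions of the study's siRNA-locus annotation in which neighbouring or overlapping annotations, of either strand, had been fused into 1 interval. The minus-strand merged loci are those counted on the minus strand of the genome, taken by their locus name, which begins with overlap-. Of the 13063 loci counted in these Drosophila melanogaster S2 cells, 350 were such loci (2.68% of the loci, and 10.5% of the annotated bases), beside 358 merged loci on the plus strand. A further locus of the same naming, overlap-3, took 11.7% to 55.1% of the locus reads of the small-RNA libraries and was left out of the members.

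S2 cells are a cultured line of embryonic, macrophage-like origin. The libraries came from CRISPR–Cas9 knockout lines lacking Dora (dora), Hen1 (hen1) or both proteins (hen1/dora), and from wild-type lines (WT) made with non-targeting guides. Each genotype had 3 replicates, each a single clonal line, so that a replicate difference includes differences between clones. Line numbers are those of the library labels, and the same number in different library types was not taken to mean the same clone. Small RNAs were sequenced from total RNA (dora, hen1 and WT), from periodate-treated RNA (dora and WT), from Ago1 immunoprecipitates (Ago1-IP; dora and WT) and from FLAG immunoprecipitates of cells transfected with FLAG-tagged Ago2 (Ago2-IP; hen1/dora and hen1), and poly(A)-selected RNA was sequenced from dora and WT lines. The locus tables covered 33 of the 36 libraries; the total-sRNA libraries of hen1/dora cells were not analysed here. Levels of the Dora and Hen1 transcripts are not part of these locus tables and were not used to check the labels.

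In flies, endogenous siRNAs are cut by Dicer-2 from double-stranded RNA that arises from transposons, from hairpin transcripts and from overlapping antisense genes, and most of them are loaded into Ago2, where Hen1 methylates their 3′ ends. Methylated ends resist periodate oxidation, so that a treated library retains mainly Ago2-bound RNA, whereas Ago1 holds most miRNAs, whose ends are unmethylated. Dora is the substrate receptor of a ubiquitin ligase required for target-directed miRNA degradation, in which extensive pairing to a target exposes a miRNA–Argonaute complex to destruction.

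Most merged loci held 2 or more transposable-element annotations. Such a count does not tell an element inserted into another from elements that abut, and insertion was not checked over all the loci. In the Release 6 (dm6) annotation, 331 of the 350 held at least 2 transposable-element annotations, 8 held 1 and 11 held none, and 326 were covered by such annotations over at least 99.53% of their length, 176 of them at every base. They ranged from 100 to 66002 nt (median 2250 nt). Of them, 281 had a plus-strand twin whose ends lay within 1 nt of theirs, 159 overlapped an annotated gene, 24 held genes on both strands, 10 lay inside flamenco, the X-linked piRNA cluster known for silencing gypsy-family elements in ovarian somatic cells, and 3 overlapped an annotated hairpin-RNA gene. INE-1, a short and very abundant nonautonomous element, was annotated in 93 loci, 1360 in 69 and Cr1a, a non-LTR retrotransposon, in 45.

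Insertion of an element into another can be read at the boundaries of 3 loci, overlap-623, overlap-31 and overlap-662. The sequences are those of the plus strand of dm6, with the inserted element in capitals and its host in lower case. In overlap-623 (X:14001033-14007158), an LTR retrotransposon, diver (5965 nt), interrupts an INE-1 copy of which only 162 nt lie outside the insert, and the same 3 bases, gtg, flank diver on both sides (windows X:14001088-14001147 and X:14007053-14007112). In overlap-31 (2L:21730007-21737572), gypsy12 (2581 nt) interrupts the LTR retrotransposon 297 (windows 2L:21730735-21730794 and 2L:21733316-21733375). In overlap-662 (X:22946847-22956527), Cr1a (4459 nt) interrupts another 297 copy (windows X:22949848-22949907 and X:22954307-22954366).
overlap-623, left end of diver: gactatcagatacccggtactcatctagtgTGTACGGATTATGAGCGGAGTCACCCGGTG
overlap-623, right end of diver: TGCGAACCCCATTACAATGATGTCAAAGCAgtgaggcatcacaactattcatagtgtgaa
overlap-31, left end of gypsy12: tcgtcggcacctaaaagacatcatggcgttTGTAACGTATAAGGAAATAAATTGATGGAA
overlap-31, right end of gypsy12: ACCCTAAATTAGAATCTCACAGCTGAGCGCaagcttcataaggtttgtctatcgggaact
overlap-662, left end of Cr1a: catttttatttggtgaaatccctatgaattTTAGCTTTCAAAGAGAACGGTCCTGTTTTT
overlap-662, right end of Cr1a: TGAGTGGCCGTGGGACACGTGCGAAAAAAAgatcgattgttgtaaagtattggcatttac

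Because the same element lies at many places, a short read from a merged locus is often not unique to it. Of the 21-nt words of a locus, a median of 63.7% occurred at 2 or more places of the genome; in 89 loci at least 90% did, and in 33 under 10% did. Overlap-623 was at the repeated end (96.3%) and overlap-31 near the unique end (18.3%), with overlap-662 at 79.8%. The authors' aligner kept reads with up to 50 places and their counting divided such reads among the places, so a change at a repeated locus may be shared with its copies.

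The small-RNA tables held values scaled between libraries, on a scale where 1 read was worth 28.1 to 193.5 in the tables of total, treated, Ago1-IP and Ago2-IP RNA. Dividing by that step gave whole reads (within 0.1) at every low value of each library, and the libraries then held 21001 to 244056 reads over all loci, of which 409 to 3508 lay in the merged loci. At such depths only the more abundant loci could be tested. The hen1 table held counts, and the RNA-seq table FPKM, fragments scaled for locus length and mapped reads, whose steps implied 15.4 to 18.7 mapped reads per library, in units of 1000000 reads. Periodate-treated dora 1 stood apart from the other treated libraries: 66.3% of its reads counted against the miRNA annotation were size-selection markers or sequencing standards, against 0.22% to 0.50% in the other 5, and results that rest on it are given with and without it.

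**Figure D1:**
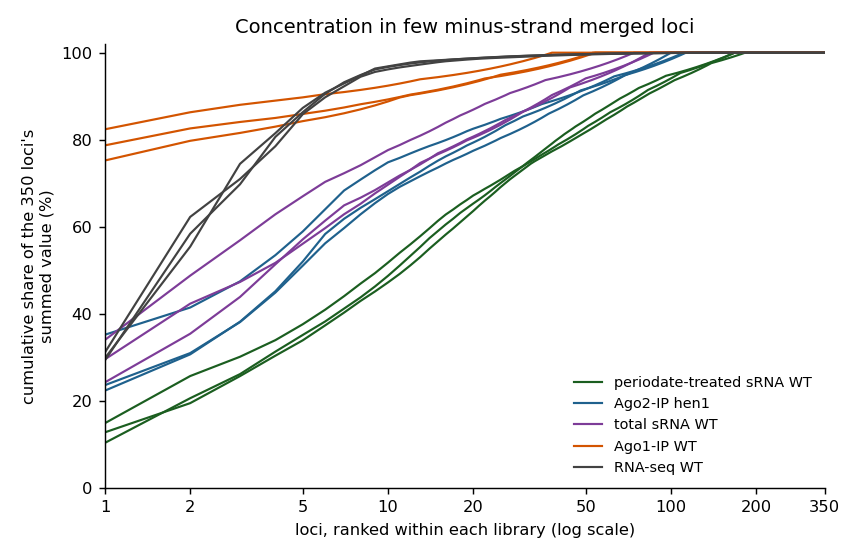
Cumulative share (%) of the summed value of the 350 minus-strand merged loci, against the rank of the locus within each library (log scale), with 1 line for each of the 3 libraries of a group. The 10 highest loci held 47.2% to 51.8% of the value in treated WT libraries, 69.7% to 77.6% in total-sRNA WT libraries, and 88.8% to 92.4% in Ago1-IP WT libraries, where overlap-619 leads every line.

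Small-RNA reads were found at most of these loci, but few loci held most of the reads. Of the 350 loci, 290 had at least 1 read in some small-RNA library and 60 had none; 265 had a read in some treated library, and 74 had one in every treated library. In the 3 treated WT libraries, 48.0%, 48.0% and 52.3% of the merged loci were detected, against 23.7%, 23.3% and 27.1% of all other loci; single transposable-element loci and antisense-gene loci were shorter, with medians of 277 and 146 nt. By chromosome arm, 99 of the 350 lay on 2R, 73 on 3L, 55 on X, 54 on 2L, 39 on 3R and 30 on 4. The merged loci supplied 1.63% ± 0.17 (SD, n = 3) of the reads over all loci, overlap-3 included, in treated WT cells and 1.15% ± 0.080 in total-sRNA WT libraries. Within them, the 10 highest loci supplied 48.3% ± 1.46 in treated WT libraries (SD, n = 3), and 10 to 12 loci were enough for 50% of the reads and 69 to 81 for 90%.

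The 331 loci with 2 or more transposable-element annotations supplied 90.7% ± 0.75 of the merged loci's reads in treated WT libraries (SD, n = 3). Loci with a single transposable-element annotation supplied 7.49% ± 1.25 (8 loci), and loci with none 1.86% ± 0.50 (11 loci). By family, and leaving out overlap-619, loci holding INE-1 supplied 29.9% ± 2.67, those holding 297 supplied 26.6% ± 3.14, those holding Cr1a 20.1% ± 0.72 and those holding gypsy12 18.2% ± 1.85. A locus with several families counts in each of these shares, so they overlap, and in overlap-623 the share credited to INE-1 comes from an interval that is mostly diver.

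**Figure D2:**
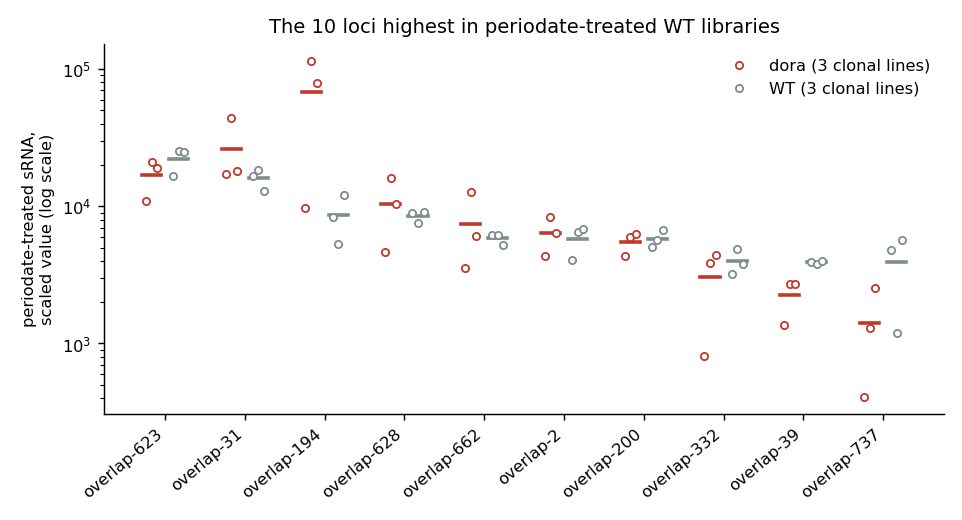
Scaled value (log scale) of the 10 loci with the highest mean in periodate-treated WT libraries. Circles are the 3 clonal lines of each genotype, dora at left and WT at right of each pair, and bars are group means; overlap-194 is the locus where 2 dora lines lie far above every WT line.

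The locus with the most treated WT reads was overlap-623, the INE-1 and diver locus. Its scaled value was 10868, 20942 and 18894 in treated dora lines (80, 210 and 187 reads), against 16747, 25224 and 24799 in treated WT lines (140, 191 and 234 reads). The groups overlapped. Overlap-31, the 297 and gypsy12 locus, had 17252, 43778 and 18085 in treated dora lines, against 16628, 18356 and 13035 in treated WT lines, again with overlapping groups. Overlap-628 (X:21523177-21556096, with 12 element annotations led by mdg1 and roo) had 4619, 16155 and 10407 in dora lines, against 8972, 7527 and 9114 in WT lines, and overlap-662 had 3532, 12665 and 6062 in dora lines, against 6220, 6207 and 5193 in WT lines. In all 4 of these loci, dora 1 was the lowest dora line, and no locus of the 4 separated dora from WT.

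The 24 loci with genes on both strands had a median of 5.71 treated WT reads per kilobase (0 to 394, with 5 loci at 0), and the other 326 loci a median of 0.65 (0 to 128, with 109 loci at 0), given as a description without a test. Overlap-2 (2L:1711302-1711677, where mRpL48, a subunit of the large mitochondrial ribosome, faces frtz, a planar-polarity effector, over a fragment of the element mdg3) had 4347, 8377 and 6365 in treated dora lines, against 4067, 6471 and 6888 in treated WT lines, and its 394 WT reads per kilobase were the highest density among the 350 loci. Overlap-192 (2R:6020311-6020694), where Pngl, a deglycosylase, overlaps the caspase gene Strica, followed at 258 WT reads per kilobase. Of the 21-nt words of overlap-2, 32.9% recurred on the opposite strand of overlap-200, an mdg3 locus on 2R whose values were 4347, 5983 and 6264 in dora lines and 5024, 5679 and 6677 in WT lines. Reads of those words could have come from either locus.

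The remaining loci of the 10 highest were overlap-332, at mael, a piRNA-pathway gene, overlap-39, a Cr1a and copia locus at Ir40a, a receptor gene, and overlap-737, inside flamenco. Overlap-332 had 815, 3889 and 4446 in treated dora lines, against 3230, 4886 and 3815 in treated WT lines. Overlap-39 had 1358, 2692 and 2728 in dora lines, against 3948, 3830 and 4027 in WT lines, so that its groups did not overlap. Every dora library was below every WT library at 3 of the 69 merged loci tested in treated RNA, and at 6.95% of all 1323 loci. Overlap-737 was the most variable of these 3, with 408, 1296 and 2526 in dora lines, against 4785, 1189 and 5723 in WT lines.

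Both strands gave siRNAs. At the 45 merged loci with a plus-strand twin and at least 30 treated WT reads over the pair, the minus strand held a median of 52% of the reads (0 to 98.04%), 23 pairs lay between 25% and 75%, 11 above and 11 below. The most abundant loci differed in this: the minus strand held 79.6% of the reads of overlap-31 and its twin in treated WT libraries (77.7% to 83.2% per library), 65.5% for overlap-623, 68.1% for overlap-194, 51.6% for overlap-2 and 42.7% for overlap-662. Summed over all 281 twins, the minus strand held 47.0%, 53.8% and 47.5% in treated dora libraries, against 36.7%, 36.8% and 40.6% in treated WT libraries. The 3 dora libraries were all above the 3 WT libraries in this share, but a pair of twins set much of it. This was overlap-181 (2R:5516941-5518716, INE-1 at the glycosyltransferase gene Ugt50B3) and its plus-strand twin, overlap+287. Overlap+287 had 3, 473 and 771 reads in treated dora libraries. It had 2041 reads over the 3 treated WT libraries together, with 699 in WT 1 and 723, the most, in WT 3. In reads before scaling, dora 3 was thus above every WT library, dora 2 was below them and dora 1 had almost none. The minus strand of the pair had at most 5 reads in any of these libraries. Without that pair the minus strand held 47.1%, 58.6% and 57.0% in treated dora libraries, against 47.6%, 46.3% and 50.0% in treated WT libraries. Without it and overlap-194, described below, the shares were 45.1%, 48.7% and 47.3% in dora, against 46.8%, 45.7% and 48.9% in WT, and the groups overlapped; these sums were chosen after seeing the data.

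**Figure D3:**
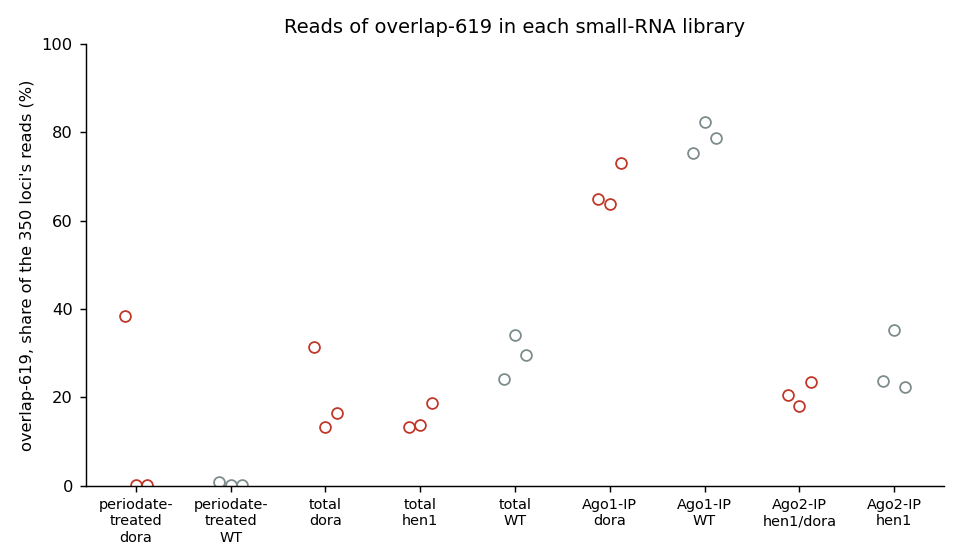
Reads of overlap-619 as a share (%) of the reads of all 350 minus-strand merged loci, with 1 circle per library and 3 libraries per group. The share was 64% to 82% in Ago1-IP libraries and under 1% in treated libraries, apart from 38.4% in treated dora 1.

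The comparison of Ago1-IP with the other libraries asked which of these RNAs reside in Ago1, and it was dominated by overlap-619 (X:6281179-6281935), where fragments of the non-LTR retrotransposons Rt1b and Rt1a abut. Overlap-619 had 339, 417 and 565 reads in Ago1-IP dora libraries, against 416, 337 and 425 in Ago1-IP WT libraries, which was 64.9%, 63.9% and 73.1% of the merged loci's reads in dora and 75.2%, 82.4% and 78.7% in WT. It also led the total-sRNA WT libraries (152, 205 and 148 reads) and most Ago2-IP libraries, but had only 10, 2 and 4 reads in treated WT libraries. The junction of its elements is shown because the reads of this locus behaved unlike those of the other merged loci (X:6281721-6281780, plus strand of dm6, Rt1a in capitals and Rt1b in lower case).
overlap-619, Rt1b to Rt1a: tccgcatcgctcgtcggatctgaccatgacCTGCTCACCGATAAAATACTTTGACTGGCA

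In treated dora 1, overlap-619 had 483 reads, 38.4% of the merged loci's reads, against 7 and 5 reads in treated dora 2 and 3. Its level moved with the marker and standard reads: in the 23 libraries where both were counted, it had 0.92 to 5.36 reads for each 1000 marker or standard reads. The antisense-gene locus cisNAT-1355 moved with it too, at 17.3 to 72.5 reads per overlap-619 read over 27 libraries. Neither size marker, of 18 and 32 nt, matched the genome exactly, and their longest runs inside overlap-619 were 10 and 7 nt. What part the markers and standards had in the reads of overlap-619 was not tested, and sums over the merged loci are therefore also given without it.

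Without overlap-619, the merged loci had few reads in Ago1-IP libraries. Set against the miRNA reads of the same libraries, they had 22.6 ± 1.51 reads per 1000000 miRNA reads in Ago1-IP dora libraries and 15.8 ± 2.69 in Ago1-IP WT libraries (SD, n = 3 each). In treated libraries they had 4450 ± 1328 in dora and 3568 ± 288 in WT, and in Ago2-IP libraries 1510 ± 52.2 in hen1/dora and 1337 ± 18.6 in hen1 cells (SD, n = 3 each). Since miRNA reads are themselves lost on treatment and in the Ago2-IP, these ratios order loci within a library type and do not give the fraction of siRNA held by either protein. The treated dora ratios ranged from 2916, in dora 1, to 5217. All these sums include overlap-194, described below, whose mean was higher in dora or hen1/dora cells in each of these library types. Without it and overlap-619, the merged loci's share of all locus reads was 0.422% in Ago1-IP dora and 0.428% in Ago1-IP WT. That share was 1.34% and 1.55% in treated dora and WT, and 1.11% and 1.21% in Ago2-IP hen1/dora and hen1.

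With counts pooled over libraries, the treated WT ratio was 16.5 times the total-sRNA WT ratio for the merged loci without overlap-619 (4459 and 1226 reads), and the Ago1-IP WT ratio was 0.0728 times it (324 reads). Loci averaging at least 10 reads per library in both total and treated WT RNA allowed a comparison locus by locus. The 8 such merged loci lay between 8.37 and 13.7, with a median of 12.1, beside a median of 11.0 over all 369 such loci. Overlap-619 was at 0.143, far below that range.

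Some loci leaned further towards the treated libraries, although total-sRNA reads were few and these loci were chosen after their values were seen. Overlap-142 (2R:4896131-4901412, 7 element annotations) had 96 treated WT reads against 3 total-sRNA WT reads, and overlap-389 (3L:23798696-23801834) 55 against 1. The 10 flamenco loci together had 238 treated WT reads against 34 total-sRNA WT reads, a ratio of 31.7 on the scale above, and 5 Ago1-IP WT reads. Their share of the merged loci's treated WT reads ranged from 2.72% to 6.81% between the 3 libraries. Within flamenco, overlap-638 (X:21740625-21744040) had 0, 7 and 9 reads in treated dora libraries, against 13, 3 and 29 in treated WT libraries, and none in any total-sRNA or immunoprecipitate library, in each of which a count of 0 allows up to 3 reads.

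At the other end, overlap-31 was the only merged locus that averaged at least 10 reads per library in both Ago1-IP WT and treated WT libraries. Its Ago1-IP values were 1846, 2121 and 1630 in dora lines (24, 34 and 24 reads), against 2017, 1749 and 1566 in WT lines (25, 16 and 21 reads), and these overlapped. Its Ago1-IP WT ratio to miRNA reads was 0.125 times its total-sRNA WT ratio, where the other 7 loci with enough total-sRNA and treated reads were lower and the median was 0.0246. In Ago2-IP its values were 10946, 8609 and 8296 in hen1/dora cells, against 8210, 7125 and 9677 in hen1 cells.

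The 3 hairpin-RNA loci were scarce in every library, with 8 treated WT, 17 total-sRNA WT and 17 Ago1-IP WT reads between them. On these few reads, their pooled Ago1-IP WT ratio to miRNA reads was 0.276 times their total-sRNA WT ratio, above that of overlap-31. Their treated WT ratio was 2.13 times it. Overlap-323 (3L:19422838-19424183, hpRNA:CR32205) holds an exact inverted repeat of 18 nt with 816 nt between its arms, shown on the minus strand because it is the region's longest self-complementary stretch and the locus was among those called on loss of Hen1. The capitals mark the paired arms (3L:19423994-19424011 and 3L:19423160-19423177).
overlap-323, 5′ arm: GTTCCTGGCGATAACCTG
overlap-323, 3′ arm: CAGGTTATCGCCAGGAAC

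**Figure D4:**
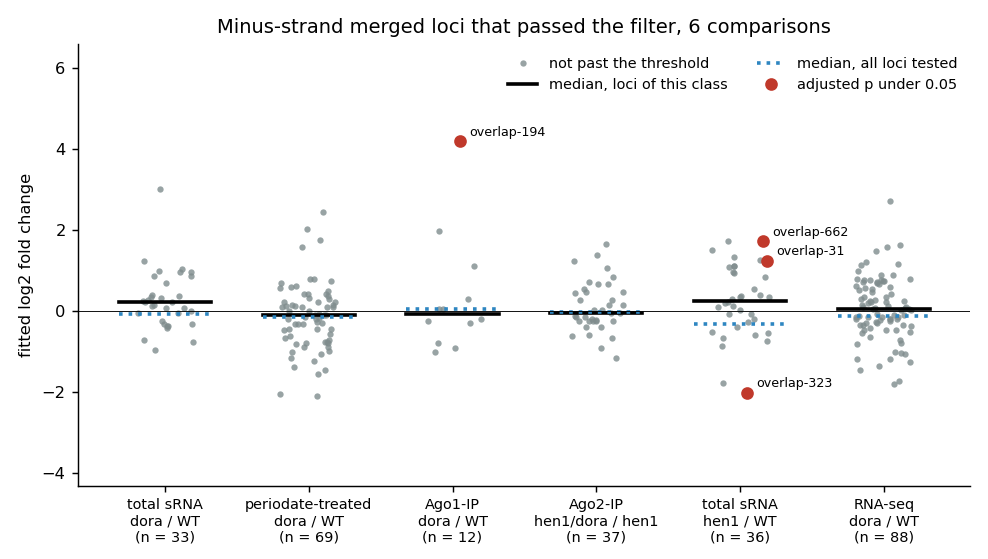
Fitted log2 fold change of each minus-strand merged locus that passed the filter, in 6 comparisons, each dot being a locus. Red dots mark the 4 calls at an adjusted p under 0.05 (overlap-194 in Ago1-IP; overlap-662, overlap-31 and overlap-323 on loss of Hen1), black bars the median of the merged loci and dotted lines the median of all loci tested.

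To ask whether siRNAs of these loci change upon loss of Dora, loci were kept if no library of the comparison was at 0 and the SD of each genotype was below its mean, and they were tested with limma on log2(value + 1), and a locus was called at a Benjamini–Hochberg adjusted p under 0.05 over all loci tested. Of the merged loci, 33 passed this filter in total sRNA, 69 in treated RNA, 12 in Ago1-IP and 37 in Ago2-IP; the others were at 0 in some library or too variable. In the treated libraries, where Ago2-bound siRNAs are best represented, none of the 69 was called by limma, beside 0.00% of 1323 loci, and 31 lay above and 38 below 0. The median log2 fold change was -0.10 over the merged loci and -0.15 over all loci tested. The other 281 merged loci were not tested there. Without treated dora 1, 92 merged loci passed and again none was called, with a median of 0.12 over them and -0.02 over all 1600 loci.

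In total sRNA, limma called none of 33 merged loci, beside 0.00% of 963 loci, with 22 above and 11 below 0 and a median of 0.22 over the merged loci against -0.06 over all loci. EdgeR with TMM scaling on the recovered reads called 1, overlap-194, which was the only call among 963 loci. In Ago2-IP libraries of cells without Hen1, where Ago2-bound RNA is unmethylated, limma called none of 37, beside 0.00% of 1162 loci, with medians of -0.04 and -0.01. EdgeR with TMM scaling on the recovered reads again called 1, overlap-194, among 6 calls over 1162 loci.

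In Ago1-IP libraries, limma called 1 of the 12 merged loci, overlap-194, beside 0.439% of 228 loci, so that it was the only locus called in that comparison (edgeR on the recovered reads called 8, with overlap-194 again the only merged locus). With no filter, when 2502 mostly sparse loci were tested, limma no longer called it (adjusted p = 0.504), and with at least 10 reads required in every library it was itself left out; leaving out any of the 6 libraries kept the call. The median over the 12 loci was -0.07, against 0.05 over all 228. The 11 other merged loci, overlap-619 and overlap-31 among them, did not pass the test.

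Overlap-194 (2R:6256172-6322173) is the longest of the 350 loci, at 66002 nt, with 29 element annotations among which Rt1b, a non-LTR retrotransposon, covers the most bases, beside the LTR retrotransposons roo, GATE and gypsy12 and the non-LTR elements F, I, X and BS. No gene is annotated in it, and 74.9% of its 21-nt words occur at 2 or more places. Its Ago1-IP value was 5692, 6799 and 4279 in dora lines (74, 109 and 63 reads), against 403, 219 and 298 in WT lines (5, 2 and 4 reads). All 3 dora lines lay far above all WT lines, and the difference was 4.20 on the log2 scale (SE 0.42, limma adjusted p = 0.00167).

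In the other library types overlap-194 varied more between dora lines. In treated RNA it had 9645, 115079 and 79919 in dora lines (71, 1154 and 791 reads), against 8374, 5282 and 12081 in WT lines (70, 40 and 114 reads), so that dora 1 lay among the WT lines and the other dora lines above them. In total sRNA it had 8073, 54802 and 51239 in dora lines, against 6838, 1496 and 4078 in WT lines. The lowest of these dora libraries was still above the WT libraries, as at 3 of the 33 merged loci tested in total sRNA and 6.44% of all 963 loci. The log2 fold changes were 2.46 (SE 0.83) in treated RNA and 3.03 (SE 0.84) in total sRNA, and neither passed the test over all loci (limma adjusted p = 0.601 and 0.491), although with at least 10 reads required in every library the treated difference passed (adjusted p = 0.00113). Without treated dora 1 the treated difference was 3.56 (limma adjusted p = 0.0538). The study's own locus analysis, by CuffDiff, gave overlap-194 an adjusted p under 0.05 in treated RNA and in Ago1-IP.

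In Ago2-IP, overlap-194 had 17432, 35097 and 20665 in hen1/dora cells (129, 212 and 137 reads), against 6228, 7393 and 8709 in hen1 cells (44, 55 and 45 reads). The groups did not overlap, and every hen1/dora library was above every hen1 library at 2 of the 37 merged loci tested and 5.77% of all 1162 loci. The log2 fold change of 1.66 (SE 0.39) did not pass limma's test over 1162 loci (adjusted p = 0.465) but passed it over the 338 loci with at least 10 reads in every library (adjusted p = 0.00768), as it did with edgeR on the recovered reads (adjusted p = 1.02e-06). The change was thus called or not according to the test and the filter, with the same direction in each.

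The plus-strand twin of overlap-194, overlap+300, did not follow it in Ago1-IP libraries, where it had 615, 437 and 747 in dora lines, against 565, 547 and 298 in WT lines. In treated RNA the twin had 2989, 13662 and 8891 in dora lines, against 4546, 2245 and 5299 in WT lines. The Ago1-IP difference at this interval was seen on the minus strand, while in treated RNA both strands were highest in dora 2 and dora 3; the difference between strands was not tested.

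**Figure D5:**
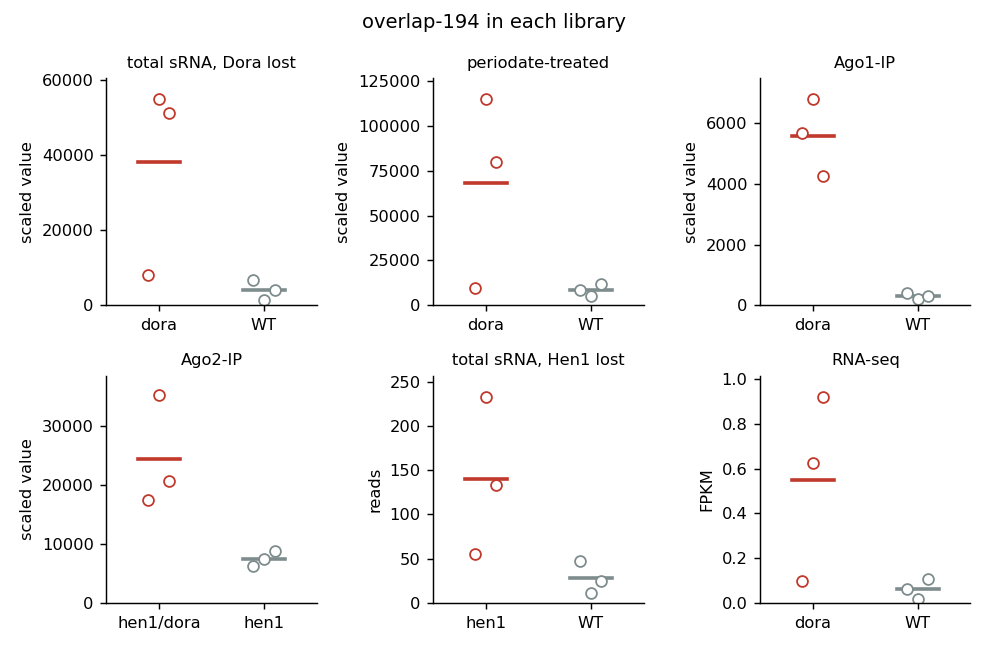
Value of overlap-194 in each library of the 6 comparisons, with the knockout (dora, hen1/dora or hen1) left of its control. Circles are clonal lines and bars are means of 3 lines. Units are scaled values, FPKM (RNA-seq) or, on loss of Hen1, reads before scaling, from libraries of unequal size. In treated RNA and in RNA-seq, 1 dora library lies within the range of the WT libraries, but none does in Ago1-IP.

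Poly(A) RNA over overlap-194 also varied between dora lines. It had 0.10, 0.63 and 0.92 FPKM in RNA-seq dora lines, about 99, 706 and 970 reads by the step of each library, against 0.06, 0.02 and 0.11 FPKM in WT lines, about 74, 15 and 134 reads. Dora 1 lay between the WT lines, and the log2 fold change of 2.74 (SE 0.92) did not pass the test (limma on log2(FPKM + 0.01), adjusted p = 0.316). The twin overlap+300 had 1.01, 2.23 and 1.18 FPKM in dora lines, against 0.97, 0.19 and 0.94 FPKM in WT lines.

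The share of all locus reads that came from the merged loci was compared between genotypes by an exact two-sided permutation test over libraries, which with 3 against 3 cannot give a p below 0.1. In total sRNA the share was 1.64% ± 0.33 in dora and 1.15% ± 0.080 in WT (SD, n = 3 each; exact p = 0.1), with every dora library above every WT library. Without overlap-194 and overlap-619 it was 0.861% ± 0.17 in dora and 0.765% ± 0.077 in WT (exact p = 0.7) and the groups overlapped, so that this separation rested on these loci. In treated RNA it was 2.07% ± 0.51 in dora and 1.63% ± 0.17 in WT (SD, n = 3 each; exact p = 0.3), and without overlap-194 and overlap-619 it was 1.34% ± 0.43 in dora and 1.55% ± 0.15 in WT (exact p = 0.6), so that the direction in treated RNA rested on these loci. Without treated dora 1, the treated share was 2.33% in dora and 1.63% in WT (exact p = 0.1). In Ago1-IP it was 2.11% ± 0.073 in dora and 2.04% ± 0.17 in WT (exact p = 0.7), and without overlap-194 and overlap-619 it was 0.422% in dora and 0.428% in WT (exact p = 1). Overlap-3, which is in the denominator, held 26.5% of the Ago1-IP locus reads in dora and 12.8% in WT. With it and cisNAT-1355 left out of the denominator the Ago1-IP share of the merged loci was 4.88% in dora (4.74% to 5.01%) and 4.21% in WT (3.97% to 4.61%; exact p = 0.1), with every dora library above every WT library. Overlap-194 and overlap-619 were still in that numerator, and the share was not recomputed without them on this denominator. Over all locus reads, leaving out overlap-619 alone gave 0.698% in dora and 0.443% in WT (exact p = 0.1). Leaving out overlap-194 as well gave the overlapping groups above. In Ago2-IP the share of all locus reads was 1.81% ± 0.12 in hen1/dora and 1.81% ± 0.12 in hen1 cells (SD, n = 3 each; exact p = 1).

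To ask what the methyl group contributes, total-sRNA counts of hen1 and WT lines were compared by edgeR's quasi-likelihood test, with the library size set to 15 miRNAs that the study used as an Ago1-enriched reference. The WT libraries had been made for an earlier study, so that genotype and library batch cannot be told apart in this comparison. Of the 36 merged loci tested, 2 were higher and 1 lower in hen1 cells, beside 8.52% of 1009 loci called, 1.68% higher and 6.84% lower. Their median log2 fold change was 0.27, against -0.30 over all loci. Scaled to the 15 miRNAs, 8 of the 36 had every hen1 library above every WT library, beside 7.04% of all loci, and 3 had every hen1 library below, beside 20.3% of all loci. With TMM scaling over the loci, which put the median of all loci at 0.09, 98 loci were called, 57 higher and 41 lower in hen1 cells. Of them, 9 were merged loci, all higher, with a median of 0.68 over the 36. With DESeq2 on the main size factors 2 merged loci were called, both higher, beside 58 of 1009 loci, 9 higher and 49 lower.

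The merged loci that were higher in hen1 cells were the nested 297 copies whose boundaries are shown above. Overlap-662 had 62, 61 and 45 reads in hen1 lines, against 10, 7 and 5 in WT lines (log2 fold change 1.74, SE 0.38, edgeR adjusted p = 0.00178). Overlap-31 had 259, 278 and 185 reads in hen1 lines, against 70, 49 and 18 in WT lines (log2 fold change 1.25, SE 0.30, edgeR adjusted p = 0.00364), and without WT 3, the lowest WT line, it no longer passed (adjusted p = 0.0684). For both loci every hen1 count exceeded every WT count, in libraries whose summed locus reads also differed (76665 to 92729 in hen1 and 45419 to 54252 in WT).

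Overlap-323, the hairpin locus, was the merged locus called lower in hen1 cells. It had 2, 1 and 4 reads in hen1 lines, against 4, 6 and 3 in WT lines, and the counts overlap before scaling (log2 fold change -2.01, SE 0.57, edgeR adjusted p = 0.0225). The call rested on few reads and was lost in edgeR with TMM scaling (adjusted p = 0.0806), with no filter (adjusted p = 0.206) and without any of hen1 1, hen1 2, WT 2 or WT 3.

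Among the loci that did not pass, overlap-194 had 55, 233 and 133 reads in hen1 lines, against 47, 11 and 25 in WT lines (log2 fold change 1.12, SE 0.39, edgeR adjusted p = 0.0618), and it passed under 6 of 12 alternatives, TMM scaling (adjusted p = 0.0109) and leaving out hen1 1 (adjusted p = 0.00174) among them, with adjusted p of 0.00174 to 0.400 over the 12. Overlap-619 had 178, 245 and 288 reads in hen1 lines, against 152, 205 and 148 in WT lines (log2 fold change -0.72, SE 0.25, edgeR adjusted p = 0.0618), and it passed under 2 of 12 alternatives, with at least 10 reads in every library (adjusted p = 0.0444) and with the replicate block (adjusted p = 0.0351). In the study's own analysis of this comparison, by DESeq2, overlap-194 and overlap-619 each had an adjusted p under 0.05. Overlap-623, the most abundant treated locus, had 155, 200 and 205 reads in hen1 lines, against 53, 89 and 64 in WT lines, and did not pass the test. These counts are before scaling. Per 1000000 reads of the 15 miRNAs, overlap-623 had 48.2, 61.1 and 59.3 in hen1, against 34.0, 54.0 and 56.1 in WT. Overlap-194 had 17.1, 71.2 and 38.5 on that scale, against 30.2, 6.68 and 21.9. The groups overlapped at both loci. Overlap-619 had 55.3, 74.8 and 83.3 in hen1, against 97.6, 124 and 130 in WT, and was lower in every hen1 library. The merged loci's share of all locus reads was 1.87% ± 0.45 in hen1 and 1.15% ± 0.080 in WT (SD, n = 3 each; exact p = 0.1), with every hen1 library above every WT library.

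Poly(A) RNA over the merged loci had a different order from the siRNAs. Of the 350 loci, 224 were above 0 FPKM in some RNA-seq library and 95 in every one, 76 had small-RNA reads but were listed at 0 FPKM throughout, and 10 had RNA-seq signal but no small-RNA read. The median locus that overlapped a gene had 0.024 FPKM in WT cells (159 loci), against 0.0027 FPKM for the loci without one (191 loci), which nevertheless supplied 56.5% of the merged loci's treated WT value. The 27 loci above 1 FPKM in WT cells included 21 that overlapped a gene, and 11 with genes on both strands. Only overlap-39 was among the 10 highest loci of both kinds of library, and the median of the 10 highest treated loci was 0.063 FPKM. Across the 165 loci above 0 in both, Spearman's rho between treated WT value per kilobase and WT FPKM was 0.43, a description over loci that share their libraries.

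The highest transcript levels were over 3 short loci. Overlap-206 (2R:12877094-12877279), where AspRS, encoding a tRNA synthetase, overlaps Nmda1, had 558, 785 and 555 FPKM in dora lines, against 690, 681 and 657 FPKM in WT lines, but 5, 4 and 4 reads in treated WT libraries. Overlap-1 (2L:123325-123634), at the end of ND-15, which encodes a subunit of respiratory complex I, had 404, 502 and 556 FPKM in dora lines, against 695, 584 and 657 FPKM in WT lines, a pair of groups that did not overlap. In RNA-seq every dora library was below every WT library at 10 of the 88 merged loci tested, and at 12.6% of all 1921 loci. Overlap-188 (2R:5733231-5733384), where INE-1 is annotated, had 257, 196 and 231 FPKM in dora lines, against 258, 434 and 155 FPKM in WT lines. Of its 21-nt words, 9.70% occurred at 2 or more places of the genome.

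On loss of Dora, limma called none of the 88 merged loci tested in RNA-seq, beside 0.00% of 1921 loci, with 47 above and 41 below 0 and medians of 0.06 over the merged loci and -0.12 over all loci. No other tool was run on FPKM. The merged loci's share of the summed FPKM over all loci was 0.206% ± 0.021 in dora and 0.251% ± 0.017 in WT (SD, n = 3 each; exact p = 0.1), with every dora library below every WT library. Overlap-206, overlap-1 and overlap-188 make up most of this sum, the 10 highest loci holding 95.3% to 96.9% of it.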

How the data were processed

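The authors aligned reads to dm6 with STAR 2.4 and made the locus tables with Cufflinks and Cuffdiff 2.2.1, dividing reads with several places and counting each strand separately. The deposited values of total, treated, Ago1-IP and Ago2-IP libraries are normalized signal per locus without length correction, made by the authors' scaling between libraries. The authors deposited the hen1 table and the miRNA tables as counts, without scaling, and the RNA-seq table as FPKM. From each small-RNA table the value of 1 read was found from the low values and whole reads were recovered. The main tests were limma 3.58.1 on log2(value + 1) or log2(FPKM + 0.01), and edgeR 4.0.16 on the hen1 counts. DESeq2 1.42.0 was an alternative. The 0.01 FPKM understates changes of loci near that level, whereas the 1 is small beside the 28.1 to 193.5 that 1 read was worth. No count test was run on the treated table. The tests were checked on simulated data. Named loci were the 10 highest in treated WT, those called in a comparison or in the study's own locus table, the locus with enough Ago1-IP and treated reads for a ratio (overlap-31), and the 3 highest in RNA-seq WT; others were chosen after their values were seen. The members and lists were chosen with earlier results of these data known. The p-values measure the spread between clonal lines. Annotation and sequences came from the Release 6 RefSeq genome. Floors cover counting error only.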

Additional observations from a re-analysis of the deposited data

Results flagged for a closer look

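In periodate-treated dora 1, 66.3% of the reads counted against the miRNA annotation were size-selection markers or sequencing standards, a signal outside the locus tables that was far above the 0.25% to 0.50% of treated WT libraries. The same library held 483 reads of overlap-619, against 2 to 10 in each of the other treated libraries.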

How the results depend on the processing

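Medians, calls and shares were recomputed under other scalings, filters and pseudocounts and without each library. With edgeR and TMM on the recovered reads, 1 of 33 merged loci was called in total sRNA (1 of 963 loci in all) and 1 of 37 in Ago2-IP (6 of 1162). With no filter, the calls were 5 of 216 in total sRNA (46 of 4679 loci), 3 of 265 in treated RNA (68 of 6072) and 0 of 133 in Ago1-IP (0 of 2502). They were 4 of 211 in Ago2-IP (59 of 4484), 5 of 223 on loss of Hen1 (103 of 4507) and 1 of 224 in RNA-seq (29 of 5013). With at least 10 reads in every library, they were 1 of 14 in treated RNA (4 of 426), 0 of 2 in Ago1-IP (1 of 36) and 1 of 8 in Ago2-IP (1 of 338). On loss of Hen1, TMM gave 9 of 36 (98 of 1009 loci). Leaving out each library gave from 1 of 42 (36 of 1119 loci, without WT 3) to 4 of 40 (73 of 1094 loci, without WT 1). The unfiltered sets hold mostly sparse loci, which is part of their construction; the cause of the other shifts was not tested.

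The median log2 fold change of the merged loci in total sRNA was 0.46 with edgeR, 1.62 with no filter and 0.041 to 0.33 on leaving out each library. In Ago1-IP leaving out each library gave -0.50 to 0.23, on loss of Hen1 0.043 to 0.38, and in RNA-seq -0.023 to 0.16. On loss of Hen1 it was 0.68 with TMM, 0.52 with DESeq2 size factors and 0.94 with no filter, and in RNA-seq it was -0.063 with no filter.

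Shares without particular loci were chosen after seeing the data for the pair of overlap-194 and overlap-619. In percentage points, knockout minus control, the treated share differed by -0.014 without overlap-194 and by -0.206 without both, the Ago1-IP share by -0.00622 and the Ago2-IP share by -0.0950 without both, the total-sRNA share by 0.0957 without both (0.485 with them), and leaving out each library gave -0.0587 to 0.0754 in Ago2-IP. The 5 highest loci held 35.0% of the treated WT reads of the merged loci. Per 1000000 reads over all loci instead of miRNA reads, the merged loci had 14965 reads in total dora, 18398 in hen1 and 11539 in total WT, 21507 in treated dora and 16185 in treated WT, 21135 in Ago1-IP dora and 20361 in Ago1-IP WT, and 18045 in Ago2-IP hen1/dora and 18081 in Ago2-IP hen1 libraries.

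Lines of equal number in 2 genotypes correlated at -0.113 to 0.177 in their deviations, not above 0.1 for every number in any comparison, so the numbers were not taken to pair the samples. With the replicate block, 5 merged loci were called on loss of Hen1 (116 loci in all), and the other comparisons kept their counts. No block was possible for Ago2-IP, and scaling total sRNA to all miRNA reads was not run, because their columns could not be matched to lines. Requiring 10 reads gave no value for RNA-seq. For the named loci, fitted alone, 87 alternatives kept direction and side of the threshold, 12 brought the locus past it and 9 took it back, with no change of sign.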
